A study of Mus musculus with 2 samples.

Results

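Mir199a-1, Mir199a-2, Mir199b, Mir214, Mir140 and Mir455 are 6 microRNA genes known from connective tissue and cartilage. They were taken by their symbols in GENCODE M21, and all 6 were found among the 2202 microRNA genes counted. Reads were counted in 2 microRNA libraries made from inserts under 30 nt. Per the labels, the tissue was gastrocnemius, a calf muscle, of male B6CASTF1/J pups at 4 days of age, whose name marks them as F1 hybrids of C57BL/6 and CAST mice. No treatment and no engineered allele is given. The labels make 1 group of 2 biological replicates, with animal numbers 3 and 4, separate biosamples and a shared donor identifier. There was no second condition, so the comparisons are between genes within a library and between the 2 libraries.

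MicroRNAs are short RNAs cut from a hairpin precursor. They pair with messenger RNAs mainly through the seed, bases 2 to 8 from the 5′ end, and lower the output of those messages. Mir199a-2 and Mir214 are made from Dnm3os, a noncoding transcript on the strand opposite the dynamin gene Dnm3, which the mesenchymal factor Twist1 is known to drive and which mice need for normal skeletal growth. Mir140, in the ubiquitin ligase gene Wwp2, and Mir455, in the collagen gene Col27a1, are best known from chondrocytes, where the cartilage factor Sox9 acts on both host genes.

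The library labelled replicate 1 held 4458853 sense reads in microRNA genes and that labelled replicate 2 held 3073086, so 1 read was worth 0.224 and 0.325 CPM (reads per 1000000 sense reads in microRNA genes). The libraries differ in what their muscle markers show. Mir206, a marker of skeletal muscle, had 652657 reads in replicate 1 and 101 in replicate 2, while Mir208a, a heart marker, had 59 and 29718. Replicate 2 thus goes against its tissue label, and the levels below are given for each library. The 11 annotated genes of the skeletal muscle list held 14.7% and 0.479% of reads, with 1 gene, Mir133c, at 0 in both. Nearly all of the first share was Mir206 (14.6%, against 0.00329% in replicate 2). Without Mir206 the other 10 held 0.0907% and 0.476%, the opposite direction, and 7 of them were tested as described below. Called higher in replicate 1 were 2, Mir133b (427 and 10 reads) and Mir133a-1 (34 and 16 reads). Called higher in replicate 2 were 3, Mir486, Mir499 and Mir208b. Most of the 0.476% lay in these 3, with 0.281% for Mir499, 0.141% for Mir208b and 0.0478% for Mir486. Whether those reads came from skeletal muscle was not tested. Of all tested genes, 36.1% and 17.6% were called in these directions. Mir1a-1, Mir1a-2, Mir1b, Mir133a-1, Mir133a-2 and Mir486 share 22 nt with another annotated microRNA gene. Reads that map to several places are not in their counts. The part that this difference has in the results below was not tested. In bulk tissue, fewer cells of a type and less RNA per cell cannot be told apart.

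The 6 genes fall into a pair of genomic settings (mm10 coordinates, GENCODE M21). Mir199a-2 (chromosome 1, 162217814 to 162217923, plus strand) and Mir214 (162223368 to 162223477) lie 5444 bases apart. Both sit in exons of Dnm3os and in an intron of Dnm3, which runs on the opposite strand. Mir199a-1 (chromosome 9, 21496495 to 21496564, minus strand) lies opposite an intron of Dnm2. Mir199b (chromosome 2, 32318460 to 32318569, plus strand) lies opposite an intron of Dnm1. Mir140 (chromosome 8, 107551244 to 107551313, plus strand) lies on the same strand as Wwp2, intronic in all 3 coding transcripts that span it and within an exon of 1 other transcript. Mir455 (chromosome 4, 63256851 to 63256932, plus strand) lies in an intron of Col27a1 on its strand. No other annotated microRNA gene overlaps any of the 6. All 6 had 0 antisense reads in both libraries, although 58 genes had antisense reads in replicate 1 and 51 in replicate 2.

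The mature sequences show which reads can be told apart, and are therefore given first, from RefSeq (GRCm38.p6), 5′ to 3′ with the seed in capitals. Of the 6 genes, 5 have a hairpin entry and 6 a mature entry there, with 7 different mature sequences. The Mir455 hairpin, the 5′ product of Mir199b and the 5′ product of Mir140 have no entry.
miR-199a-5p: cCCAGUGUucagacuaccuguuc
miR-199a-3p and miR-199b-3p: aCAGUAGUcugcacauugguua
miR-214-5p: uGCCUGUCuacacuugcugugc
miR-214-3p: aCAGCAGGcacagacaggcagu
miR-140-3p: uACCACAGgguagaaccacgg
miR-455-5p: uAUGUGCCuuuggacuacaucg
miR-455-3p: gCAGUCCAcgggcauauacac

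The 7 sequences have 7 different seeds, so no 2 of them belong to a shared seed family. Among 1679 mature names in the table, the seed of miR-214-3p is also that of miR-761, the seed of miR-140-3p that of miR-497b and the seed of miR-455-5p that of miR-5129-3p. The other 4 seeds are found in no different mature sequence that has an entry. The 5′ product of Mir199b has none, and the matching stretch of its hairpin, described below, holds the seed of miR-199a-5p. The sequence of miR-199a-5p lies in 2 annotated microRNA genes, Mir199a-1 and Mir199a-2. The sequence of miR-199a-3p lies in 3, the same pair and Mir199b. Each of the other 5 lies in a single annotated microRNA gene.

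The hairpins of the Mir199 genes show how much of each is left to count. They are given from RefSeq, with capitals for bases in a stretch of 22 nt or more that another annotated microRNA gene also holds.
Mir199a-1: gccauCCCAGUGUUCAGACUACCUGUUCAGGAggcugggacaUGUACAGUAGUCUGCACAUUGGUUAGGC
Mir199a-2: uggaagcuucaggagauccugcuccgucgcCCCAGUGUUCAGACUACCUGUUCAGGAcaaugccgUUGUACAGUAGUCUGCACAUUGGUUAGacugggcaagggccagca
Mir199b: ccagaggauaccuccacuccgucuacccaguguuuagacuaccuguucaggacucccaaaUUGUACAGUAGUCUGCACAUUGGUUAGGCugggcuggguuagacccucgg

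In Mir199a-1, 55 of 70 bases lie in such stretches, in Mir199a-2 54 of 110, and in Mir199b 29 of 110. Both mature products of Mir199a-1 and Mir199a-2 are covered in full. In Mir199b the 3′ product is covered, and the 5′ arm is not. The stretch of Mir199b closest to miR-199a-5p (chromosome 2, 32318485 to 32318507) differs from it by C10U, the only difference, counted from the 5′ end of miR-199a-5p. It lies outside the seed. Mir214, Mir140 and Mir455 hold no stretch of 22 nt found in another annotated microRNA gene, whereas 1081 of all 2202 genes (49.1%) do. The files list reads that map to several places apart from the genes, 35.7% of all reads in replicate 1 and 45.1% in replicate 2. How many of those came from Mir199 genes cannot be told from the files, so the Mir199 counts are not a measure of the total miR-199 level.

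**Figure D1:**
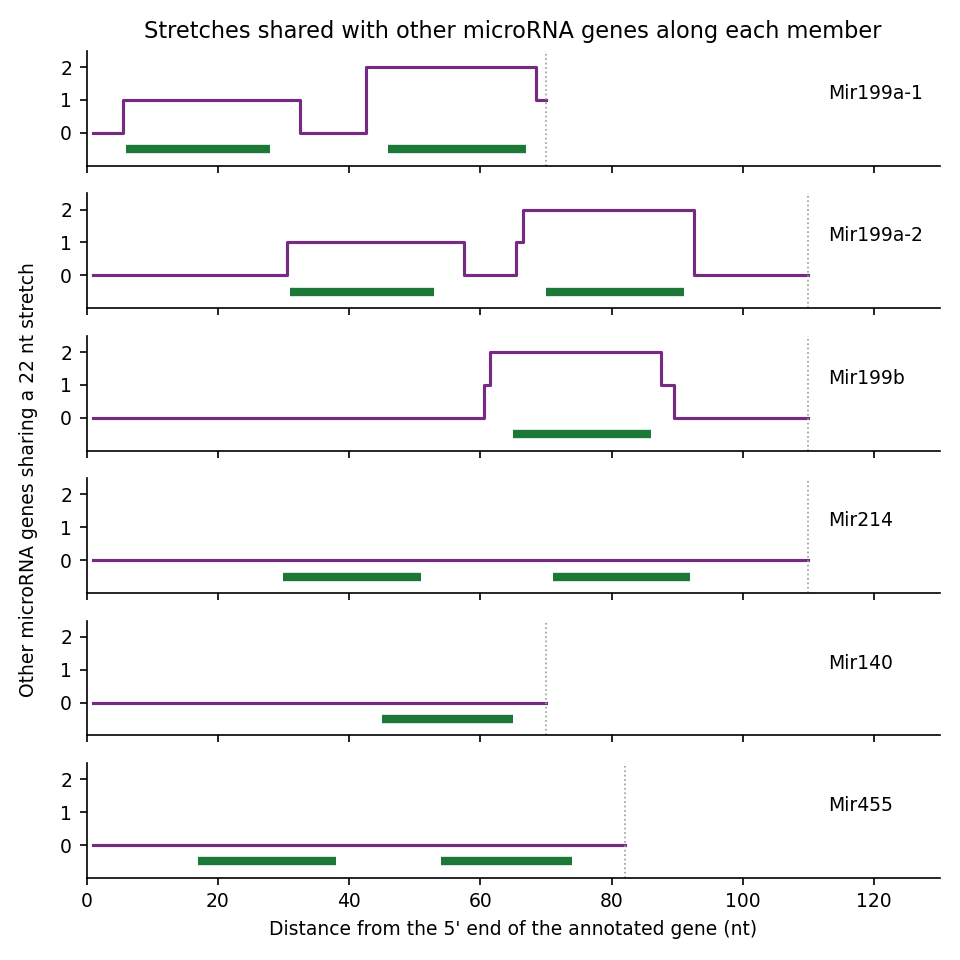
For each of the 6 genes, the line gives the number of other annotated microRNA genes that share a 22 nt stretch covering a base, against distance from the gene's 5′ end in nt. Green bars mark mature products with a RefSeq entry, and the dotted line marks the gene's end. The bars of Mir199a-1 and Mir199a-2 lie under shared stretches, and Mir214, Mir140 and Mir455 stay at 0 throughout.

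Mir214 was the most abundant of the 6 in both libraries. It had 25804 reads in replicate 1 and 8555 in replicate 2, or 5787 CPM (95% interval 5717 to 5858) and 2784 CPM (2725 to 2843). It ranked at 34 and 37 among all microRNA genes, so its place hardly differed while its level did. In mouse muscle, Mir214 is known to repress Ezh2, the Polycomb methyltransferase that keeps differentiation genes silent.

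Mir455 and Mir140, the cartilage genes, came next, in an order that differed between the libraries. Mir455, described in cartilage and in brown fat cells, had 5716 and 3239 reads, or 1282 CPM (1249 to 1316) and 1054 CPM (1018 to 1091). Mir140, whose loss in mice shortens the skeleton and which is known to target the cartilage protease gene Adamts5, had 2777 and 4976 reads, or 623 CPM (600 to 646) and 1619 CPM (1575 to 1665). Mir455 therefore stood above Mir140 in replicate 1, and below it in replicate 2, with intervals that did not overlap in either. Mir455 ranked at 77 and 69 and Mir140 at 104 and 53.

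The Mir199 genes had few counted reads. Mir199b had 275 in replicate 1 and 58 in replicate 2, or 61.7 CPM (54.6 to 69.4) and 18.9 CPM (14.3 to 24.4). Mir199a-2 had 254 and 12 reads, or 57.0 CPM (50.2 to 64.4) and 3.90 CPM (2.02 to 6.82). In replicate 1 the intervals of these genes overlapped, so their order was not resolved there, and in replicate 2 Mir199b was the higher. Mir199a-1 had 1 read in replicate 1 and 0 in replicate 2, where a count of 0 allows up to 0.976 CPM. The Mir199 levels are uncertain because of the shared stretches printed above. miR-199a-3p is known to promote division of heart muscle cells in rodents.

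Small RNA reads span a whole mature product, so counts were not divided by gene length in these orders. Per 100 nt of annotated gene, Mir214, Mir455 and Mir140 had 23458, 6971 and 3967 reads in replicate 1. In replicate 2 Mir214, Mir140 and Mir455 had 7777, 7109 and 3950. The order within each library was the one given above, and in replicate 2 the distance from Mir214 to Mir140 was smaller on this scale.

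**Figure D2:**
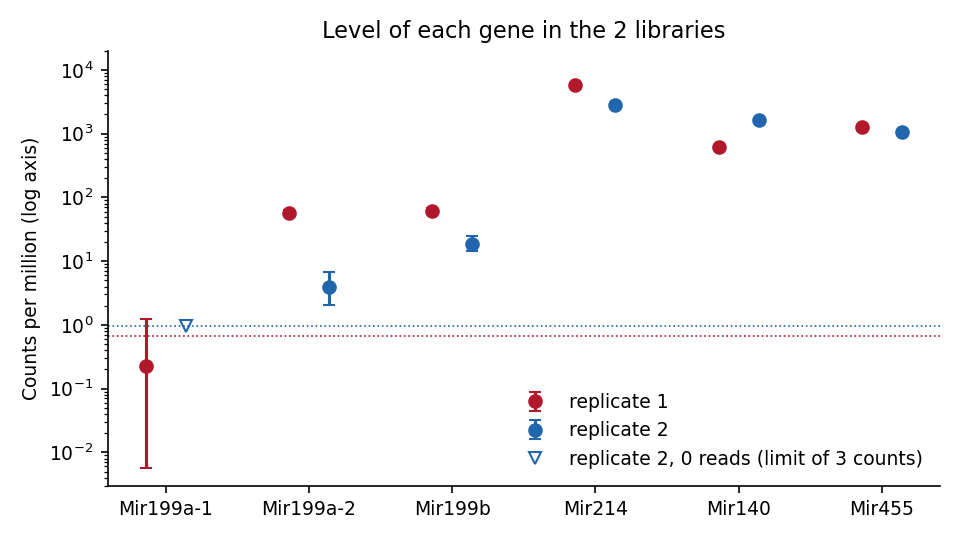
CPM (log axis) of each gene in replicate 1 and replicate 2, with exact 95% intervals for counting error. Dotted lines mark the limit that a count of 0 allows in each library (0.673 and 0.976 CPM), and the open triangle marks Mir199a-1 with 0 reads in replicate 2. Of the 5 genes with reads in both libraries, Mir140 is the only one whose point is higher in replicate 2.

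Together the 6 genes held 0.781% of microRNA reads in replicate 1 (0.773 to 0.789%) and 0.548% in replicate 2 (0.540 to 0.556%). What made up that share differed. Mir214 gave 74.1% of the 6 genes' reads in replicate 1 (73.6 to 74.6%) and 50.8% in replicate 2 (50.0 to 51.6%). Mir140 gave 7.97% (7.69 to 8.26%) and 29.5% (28.9 to 30.2%). Mir455 gave 16.4% (16.0 to 16.8%) and 19.2% (18.6 to 19.8%), and the Mir199 genes together 1.52% (1.40 to 1.66%) and 0.416% (0.324 to 0.525%). The cartilage genes Mir140 and Mir455 together held 24.4% of these reads in replicate 1 and 48.8% in replicate 2. Such a share also depends on the reads of Mir214. Of all microRNA reads, the cartilage genes held 0.190% and 0.267%.

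The tested genes opposite dynamin genes were higher in replicate 1, and the cartilage genes were split. Genes were kept where both libraries together gave 10 reads or more, which left 410. Their reads were compared between the libraries by a two-sided exact binomial test with Benjamini-Hochberg adjustment over all of them. A gene was called different with an adjusted p under 0.05 and a log2 ratio, replicate 1 over replicate 2, of at least 1 in size. Of the 6 genes 5 were tested, Mir199a-1 having too few reads. Mir199a-2, Mir199b and Mir214 were higher in replicate 1, and 0 were higher in replicate 2, by this test. Of all genes tested, 36.1% were higher in replicate 1 and 17.6% in replicate 2, so such calls are common in this pair. All 5 tested genes had an unadjusted p under 0.05, as did 319 of all 410. The test measures departure from counting error only and does not compare conditions. With the spread estimated from the pair itself (biological coefficient of variation 1.11), the edgeR exact test called 0 of the 5, and 0 of all 410, with an unadjusted p under 0.05 for 0 and 28 of them. There the difference between the libraries sets its own error, so the absence of calls says nothing about how stable a call is. With an assumed coefficient of 0.4 it called Mir199a-2 and Mir199b, and 120 of all 410.

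Mir199a-2 had a log2 ratio of 4.38 (95% counting interval 3.66 to 5.46, adjusted p = 3.13e-63 by the exact binomial test). Mir199b had a log2 ratio of 2.32 (1.92 to 2.77, adjusted p = 1.09e-37 by the exact binomial test). Mir214 had a log2 ratio of 1.68 (1.65 to 1.72), with an adjusted p too small to be stored. Thus the counted reads of Mir199a-2 and Mir214, which lie in exons of the same noncoding transcript, differed between the libraries by unequal amounts. Mir199a-2 had only 12 reads in replicate 2, and both of its mature products lie in shared stretches, unlike those of Mir214. What the set-aside reads contribute to the unequal amounts was not tested.

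Mir455 had a log2 ratio of 0.91 (0.85 to 0.97, adjusted p = 1.02e-187 by the exact binomial test), under the fold asked for. Mir140 had a log2 ratio of -0.75 (-0.82 to -0.68, adjusted p = 6.58e-111 by the exact binomial test), also under it. These ratios have opposite signs, and the signs held under every scaling tried for log2 ratios. The range was 0.28 to 1.04 for Mir455 and -1.38 to -0.62 for Mir140. As a share of the unstranded total, however, Mir455 had 0.146% in replicate 1 and 0.147% in replicate 2. Its direction thus depends on the total used. The call for Mir140 did depend on the scaling, since it was called higher in replicate 2 when sizes came from DESeq2 (-1.03) or from total reads (-1.38).

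The median log2 ratio of all 410 genes was 0.33, and that of the 5 tested genes was 1.68. Relative to the median of all genes, Mir199a-2, Mir199b and Mir214 stood at 4.05, 1.98 and 1.35, Mir455 at 0.58 and Mir140 at -1.08. Ordered from the highest ratio in replicate 1, they took places 64, 95, 116, 162 and 300 of the 410 genes. All but Mir140 thus lay in the upper part of the ordering, and Mir140 lay in its lower part. Of all 220 calls, 148 (67.3%) were higher in replicate 1 under the trimmed mean of M values (TMM), against 127 of 228 (55.7%) when sizes came from DESeq2 and 115 of 250 (46.0%) when they were total reads. Those scalings moved the median of all genes by -0.28 and -0.63.

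**Figure D3:**
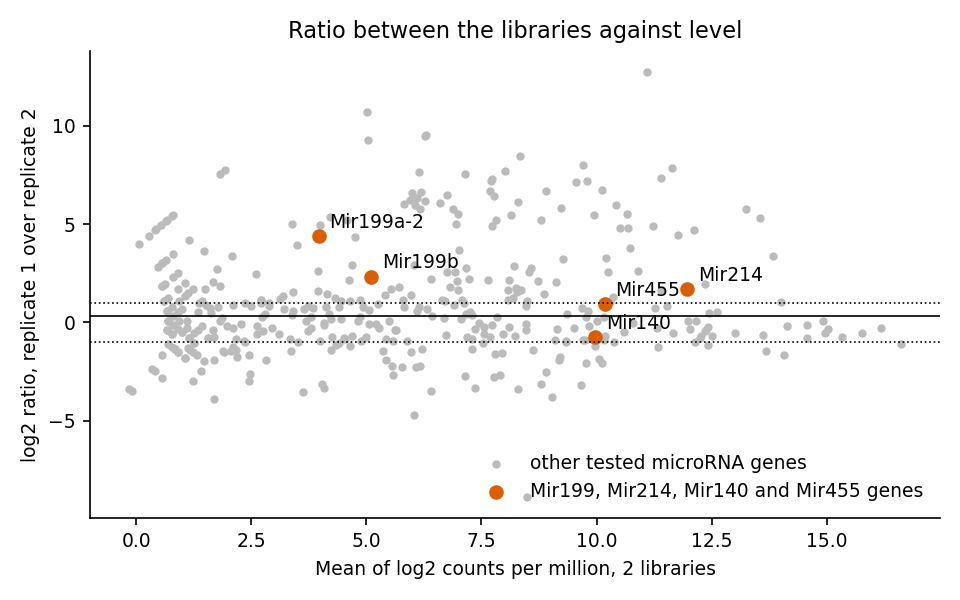
Each point is 1 of 410 tested microRNA genes, with the mean of its log2 CPM in both libraries on the x axis and its log2 ratio, replicate 1 over replicate 2, on the y axis. The solid line is the median of all genes (0.33), and dotted lines mark log2 ratios of -1 and 1. The labelled genes lie inside the cloud of other genes, with Mir199a-2, Mir199b and Mir214 above the upper dotted line and Mir140 and Mir455 between the lines.

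A ratio of 2 genes within a library needs no scaling between libraries, so the 15 pairs of the 6 genes were compared by two-sided Fisher's exact tests with Benjamini-Hochberg adjustment over the pairs. Of these, 10 had an adjusted p under 0.05, which were all the pairs without Mir199a-1. The other 5 included its single read. The tests again measure counting error only, and pairs that share a gene are not independent. Pairs of other genes were not compared. The median absolute log2 ratio of all 410 tested genes was 1.25, and 319 of them had an unadjusted p under 0.05 by the exact binomial test. The 10 pairs are thus not shown to differ more than pairs of other genes would.

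Mir214 had 9.29 reads for each read of Mir140 in replicate 1 and 1.72 in replicate 2, an odds ratio of 5.40 (5.13 to 5.70). For Mir214 and Mir455 the ratios were 4.51 and 2.64, an odds ratio of 1.71 (1.63 to 1.80, adjusted p = 2.93e-96 by Fisher's exact test). Relative to both cartilage genes, Mir214 was thus higher in replicate 1, and more so relative to Mir140. Mir140 had 0.486 reads for each read of Mir455 in replicate 1 and 1.54 in replicate 2, an odds ratio of 0.316 (0.297 to 0.337, adjusted p = 2.02e-288 by Fisher's exact test).

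The neighbours in Dnm3os did not keep a fixed ratio of counted reads. Mir199a-2 had 0.00984 reads for each read of Mir214 in replicate 1 and 0.00140 in replicate 2, an odds ratio of 7.02 (3.94 to 13.8, adjusted p = 1.99e-18 by Fisher's exact test). Mir199b, on another chromosome, was closer to Mir214, with an odds ratio of 1.57 (1.18 to 2.13, adjusted p = 0.00209 by Fisher's exact test). Between Mir199a-2 and Mir199b the odds ratio was 4.45 (2.30 to 9.33, adjusted p = 1.06e-06 by Fisher's exact test). The other 4 pairs, of either Mir199 gene with a cartilage gene, had odds ratios of 2.69 to 37.9. The ratios with Mir199a-2 rest on 12 reads of it in replicate 2, and both of its mature products lie in shared stretches.

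**Figure D4:**
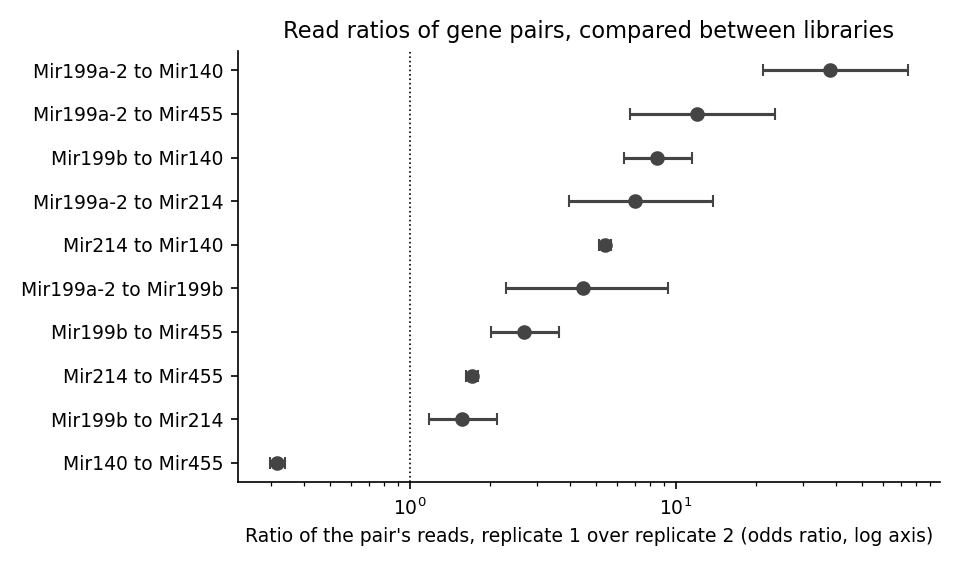
Odds ratio (log axis), the ratio of the first gene's reads to the second's in replicate 1 over the same ratio in replicate 2, for the 10 pairs with reads of both genes in both libraries. Bars are 95% intervals for counting error, and the dotted line marks equal ratios. All 10 intervals lie off that line, from 0.316 for Mir140 to Mir455 to 37.9 for Mir199a-2 to Mir140.

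Other microRNA genes known from fibrosis, cartilage and vessels did not share a single direction. Beside each list stands the background of all 410 tested genes, of which 36.1% were higher in replicate 1 and 17.6% in replicate 2. The fibrosis and collagen list had 2 of 9 tested genes higher in replicate 1 and 3 higher in replicate 2, with a median log2 ratio of -0.30. These counts were 1 and 4 under both other scalings. There, all 410 genes gave 127 and 101 calls with the sizes of DESeq2, and 115 and 135 by total reads. Mir21a, known to promote fibroblast survival in the heart, had 17340 reads in replicate 1 and 5807 in replicate 2, a log2 ratio of 1.67. Mir29a, a repressor of collagen genes, had 336 and 2316 reads, a log2 ratio of -2.69, and was called higher in replicate 2. Mir30c-1 and Mir30c-2, repressors of the matrix growth factor gene Ctgf, were higher in replicate 2 too, at -2.75 and -3.32, and both share a 22 nt stretch with another gene. The collagen repressor Mir29a and Mir214 thus differed between the libraries in opposite directions. The other Mir29 genes of the list, Mir29b-1 (-0.85), Mir29b-2 (0.09) and Mir29c (-0.30), were not called.

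In the list of other cartilage and bone genes, 4 of 10 tested genes were higher in replicate 1 and 1 was higher in replicate 2, with a median of 0.53. These counts were 4 and 2 under both other scalings. The shares of all tested genes were 36.1% and 17.6% in the main comparison. Mir337, of the imprinted Dlk1-Dio3 domain, stood at 4.78, Mir34c, a p53 target, at 1.82 and Mir22, abundant in muscle, at -1.46. Mir145a, known to repress Sox9, stood at -0.88, close to Mir140 and under the threshold. The endothelial and smooth muscle genes Mir126a, Mir143 and Mir145a stood at -0.75, -0.54 and -0.88, 0 of 3 called in the main comparison, with list shares of 4.71% and 11.5%. By total reads all 3 were called higher in replicate 2, and 2 were with the sizes of DESeq2. Calls higher in replicate 2 over all 410 genes also rose, from 72 to 135 by total reads and to 101 with the sizes of DESeq2. Those higher in replicate 1 went from 148 to 115 and 127. Calls of these vessel genes thus depended on the scaling, as did that of Mir140 and the counts over all genes.

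**Figure D5:**
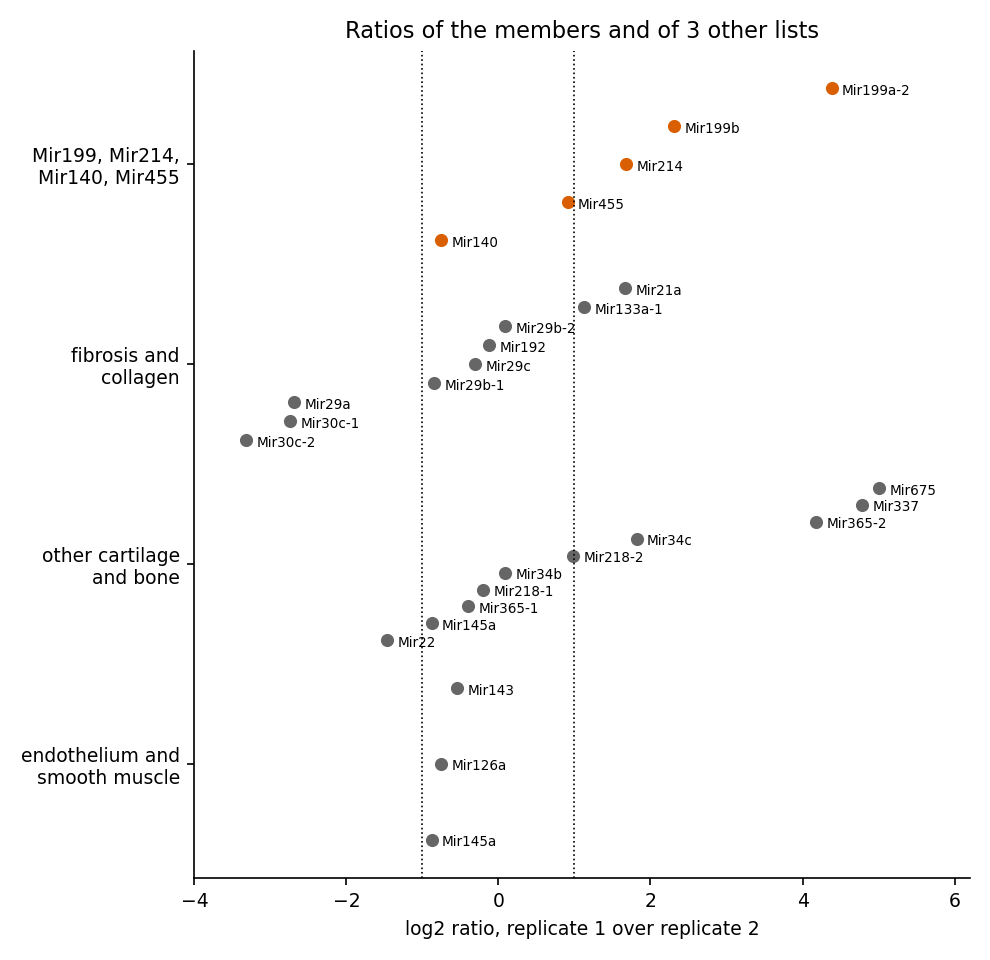
The log2 ratios, replicate 1 over replicate 2, of the 5 tested genes of the Mir199, Mir214, Mir140 and Mir455 set and of 3 other lists, 1 point per tested gene. Dotted lines mark ratios of -1 and 1, and vertical spread within a list only separates points. Mir145a stands in 2 of the lists. Mir140 (-0.75) lies at the same side as Mir126a, Mir143 and Mir145a, and Mir214 (1.68) beside Mir21a (1.67).

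Markers of other cells differed between the libraries as well, and their part in the ratios above was not tested. The lists are short, and 36.1% of all tested genes were higher in replicate 1 and 17.6% in replicate 2. The skeletal muscle list had 3 of 8 tested genes higher in replicate 1 and 3 higher in replicate 2. The erythroid list had 0 of 2 higher in replicate 1 and 2 higher in replicate 2, with shares of 0.0220% and 0.0979%. The white blood cell list had 1 and 3 of 5, with shares of 0.0793% and 0.429%, and the epithelial list 0 and 3 of 7, with shares of 0.0223% and 0.0587%. The neural list had 3 and 1 of 4, with shares of 0.142% and 0.0426% and with 6 of its 11 genes at 0 in both libraries. All 6 share a 22 nt stretch with other annotated microRNA genes, and reads that map to several places are not counted. Their counts of 0 therefore do not show absence.

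Outside the 6 genes, those closest to Mir214 in log2 CPM over both libraries were Mir351 (8236 and 3319 CPM), Mir21a (3889 and 1890 CPM) and Mir98 (3167 and 2726 CPM). Their distances were 0.57, 0.80 and 0.87 on the log2 scale. Those closest to Mir140 were Mir423 (672 and 1932 CPM), Mir484 (735 and 1853 CPM) and Mir320 (508 and 1465 CPM), at distances of 0.28, 0.31 and 0.33. With only 2 libraries, likeness in this measure says little more than that levels and ratios were near. Of the 32 tested genes that lie antisense to a protein-coding gene, 11 were higher in replicate 1 and 4 in replicate 2, with a median log2 ratio of 0.09. Mir214, Mir199b and Mir199a-2 are 3 of those 11. Of all 410 tested genes, 148 (36.1%) were higher in replicate 1 and 72 (17.6%) in replicate 2, so the antisense counts lie near the background. Of the 209 tested genes on the same strand as a protein-coding gene, as Mir140 and Mir455 are, 56 were higher in replicate 1 and 34 in replicate 2, with a median of 0.06.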

How the data were processed

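Raw sense, antisense and both-strand read counts per microRNA gene were deposited by the authors for each library. The deposited description files name mm10 and GENCODE M21. The layout is that of STAR gene counts, but the aligner, its version and the trimming, not given in the sources used here, stay unnamed. All 2202 identifiers matched GENCODE M21. The sense column was used. Columns of other samples numbered 0. Summary lines stayed out of library sizes: in replicate 1 and replicate 2 they held 9.97% and 8.60% unmapped, 35.7% and 45.1% multimapping and 2.05% and 3.83% unassigned reads.

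CPM and shares are relative to sense reads in microRNA genes, with exact Clopper-Pearson 95% intervals and a limit of 3 counts for a count of 0. No source names molecular identifiers, so intervals cover counting error only. Log2 ratios use a prior count of 1 and TMM sizes from genes with at least 10 reads over both libraries (edgeR 4.0.16, R 4.3.3). With 1 group, a quasi-likelihood test has no contrast, so exact binomial tests were used, checked on simulated data. The simulated counts held counting error only, as the test assumes, so the check does not cover the wider spread of this pair. The members, lists and tests were chosen with earlier results of these data known. Genes named beside the 6 are, per list, up to 4 with at least 100 reads in either library, by mean share, and the 3 nearest to Mir214 and to Mir140. The skeletal muscle genes other than Mir206 and the Mir29 genes other than Mir29a were named after values were seen. The muscle list was also taken without Mir206 after values were seen. Shared stretches were searched in annotated sequences on both strands, since no genome sequence was used here. Python 3.11.15, scipy 1.17.1 and DESeq2 1.42.0 (alternative size factors) were used.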

Additional observations from a re-analysis of the deposited data

How the results depend on the processing

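No paired analysis was possible because the labels give a single group. The alternative scalings, filters and column left the counts of all 6 genes unchanged. They altered only the library sizes and the set of genes tested. Under these settings, with the binomial test, Mir199a-2, Mir199b and Mir214 kept their calls. Log2 ratios were 3.76 to 4.52, 1.69 to 2.45 and 1.06 to 1.82 for these 3 genes. With the dispersion of the pair, which the tested difference itself sets, so that few calls were possible, their ratios of 4.38, 2.32 and 1.68 were not called, nor was any gene (0 of the 6 and 0 of all genes in either direction). With an assumed biological coefficient of variation of 0.4, Mir214 (1.68) lost its call at an adjusted p of 0.139 by the edgeR exact test, and all genes gave 95 and 25 calls in place of 148 higher in replicate 1 and 72 higher in replicate 2. Mir140 was called higher in replicate 2, making 1 of the 6 genes, when sizes came from DESeq2 (-1.03), from total reads (-1.38) or from genes with at least 100 reads (-1.13). All genes then gave 101 of 410, 135 of 410 and 75 of 266 calls higher in replicate 2, and 98 of 266 higher in replicate 1 with at least 100 reads, where fewer genes were tested. Mir455 was called when the scaling left out the Dlk1-Dio3 genes (1.04), where all genes gave 157 and 65 of 410 calls. Relative to all reads, a larger total, replicate 1 and replicate 2 had shares of 0.409% and 0.233% for the 6 genes together (mean 0.321%), 0.303% and 0.118% for Mir214 (mean 0.210%) and 0.0671% and 0.0447% for Mir455 (mean 0.0559%). The unstranded column, with a smaller total, gave Mir455 0.146% and 0.147% (mean 0.146%), so its higher share in replicate 1 was lost there. Such means pool unlike libraries: Mir214 had 0.429% as a mean, 0.579% without replicate 2 and 0.278% without replicate 1. Per 100 nt, Mir140 took place 2 and Mir455 place 3 by mean share, an order that rests on the pooling, since each library kept its own. For each of the 6 genes, windows of 18 and 25 nt gave the same number of other genes sharing a stretch. The share of calls higher in replicate 1 was 56.6% to 59.0% with other filters and the unstranded column. Read depth limits Mir199a-1 (1 and 0 reads) and Mir199a-2 (12 reads in replicate 2).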
